A study of Mus musculus with 8 samples.

Results

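The pocket protein genes Rb1, Rbl1 and Rbl2 encode pRb, p107 and p130. These 3 genes, of 12393 with a probe set of their own on the array, were followed through every probe set whose only symbol in the platform annotation was Rb1, Rbl1 or Rbl2. That rule gave 5 of the 22626 probe sets tested, 1 for Rb1, 2 for Rbl1 and 2 for Rbl2, and each is described separately. Affymetrix arrays measured RNA from the whole skin of FVB newborns in 4 genotypes, with 2 arrays each, and every array held RNA pooled from 3 animals. The genotypes, by label, were pRb-/-;p107-/-, pRb-/-;p107+/+, pRb+/+;p107-/- and pRb+/+. The arrays measured no protein, so loss or absence of pRb or p107 below refers to these labels. Labels of the pRb+/+ arrays leave p107 unmentioned, and wild-type p107 is assumed for them. No allele of Rbl2 is named for any group, so no genotype was designed to lack p130. The title of the series speaks of pRb-deficient epidermis, but the labels name neither a promoter that drives the deletion nor the deleted part of a gene. Which skin cells carry the pRb deletion is therefore unknown here.

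Pocket proteins bind E2F transcription factors through a shared pocket domain and repress genes needed for S phase. Cyclin-dependent kinases release that repression by phosphorylating them when a cell leaves G1. pRb binds mainly the activating E2F factors, whereas p107 and p130 bind mainly the repressive ones and form the DREAM complex with the MuvB core. p130 prevails in resting cells, and p107 rises when cells cycle, because Rbl1 is itself an E2F target gene. In mouse epidermis, pRb and p107 have partly overlapping roles in holding back proliferation and in differentiation.

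The sequences just upstream of the Rbl1 and Rbl2 starts are shown because Rbl1 is known as an E2F target. Both are the 250 bases before the gene start in RefSeq (GRCm38.p6), read 5′ to 3′ on the gene's strand, and capitals mark matches to an E2F motif. The motif was searched as TTTCCCGC, TTTCGCGC, TTTGCCGC and TTTGGCGC on both strands. The Rbl1 window held 1 match, at 18 to 11 bases before the start, and the Rbl2 window held none. Of 32851 upstream windows of that length, 1.86% held a match. That share is not matched for base composition: G and C made up 63.6% of the Rbl1 window and 46.8% of the Rbl2 window, against a median of 52.4%. A match describes the letters in the window and not a bound site.
Rbl1 (chr2:157204535-157204784, minus strand): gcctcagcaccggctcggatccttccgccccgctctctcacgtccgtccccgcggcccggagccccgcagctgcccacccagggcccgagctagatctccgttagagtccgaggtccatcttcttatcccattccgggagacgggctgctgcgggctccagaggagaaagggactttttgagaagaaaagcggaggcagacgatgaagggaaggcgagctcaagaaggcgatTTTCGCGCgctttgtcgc
Rbl2 (chr8:91069807-91070056, plus strand): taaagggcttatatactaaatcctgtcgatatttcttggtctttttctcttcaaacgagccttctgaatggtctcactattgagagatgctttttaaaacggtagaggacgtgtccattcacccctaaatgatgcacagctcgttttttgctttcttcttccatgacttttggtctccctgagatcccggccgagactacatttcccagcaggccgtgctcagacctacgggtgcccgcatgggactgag

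Each probe set was deposited as z-scores, scaled to mean 0 and SD 1 over the 8 arrays. Differences are therefore in SD units of that probe set. They carry no expression level and no fold change, and probe sets cannot be set against each other by level. Whether the markers of skin are expressed at all cannot be read from z-scores either. Differences below come from a linear model fitted to all 8 arrays, with its standard error (SE) and a p-value adjusted by Benjamini-Hochberg over all 22626 probe sets. A probe set counts as changed at an adjusted p below 0.05. The labels do not say whether the 2 arrays of a genotype held separate pools, so p-values measure only the spread between these arrays, whose small number limits precision. In bulk skin, fewer cells of a type and less RNA per cell cannot be told apart.

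Rb1 transcript was lowest in pRb-/-;p107-/- skin and intermediate in both single-loss genotypes. Its probe set, 1417850_at, stood at -1.56 and -1.28 in pRb-/-;p107-/- duplicates, at -0.22 and 0.36 in pRb-/-;p107+/+ duplicates, at 0.02 and 0.4 in pRb+/+;p107-/- duplicates and at 1.21 and 1.07 in pRb+/+ duplicates. The highest and the lowest genotype were clear of all other arrays, while the 2 single-loss genotypes overlapped each other. Rb1 fell where both were lost, with means of -1.42 ± 0.2 in pRb-/-;p107-/- skin and 1.14 ± 0.1 in pRb+/+ skin (SD, n = 2 arrays each) and a difference of -2.56 ± 0.27 (SE, limma linear model, adjusted p = 0.0391). In that comparison 2.94% of all probe sets passed, and 1 of the 5 pocket protein probe sets did. Of all probe sets, 0.199% had a difference of larger size, and 1.72% had a smaller p in the same test. The call was lost under every alternative tried (adjusted p from 0.0586 to 0.216), leaving out any single array included, although the difference stayed between -2.69 and -2.42.

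Comparisons that differ in a single gene gave smaller Rb1 differences. Where p107 was kept, pRb loss gave -1.07 ± 0.27 (adjusted p = 0.266), and where p107 was lost it gave -1.63 ± 0.27 (adjusted p = 0.17). Loss of p107, in which Rb1 is not the targeted gene, gave -0.93 ± 0.27 with pRb present (adjusted p = 0.198) and -1.49 ± 0.27 without it (adjusted p = 0.105). None of these 4 differences passed the threshold. In each of them the duplicates of both genotypes did not overlap, as for 40.4%, 50.9%, 57.3% and 51.1% of all probe sets in these comparisons. The interaction of the losses, -0.56 ± 0.38, did not pass (adjusted p = 0.613). Averaged over the other gene, the difference was -1.35 ± 0.19 for pRb loss (adjusted p = 0.142) and -1.21 ± 0.19 for p107 loss (adjusted p = 0.0623). Neither the 4 pRb-/- arrays nor the 4 p107-/- arrays were clear of the other 4 in Rb1. The position of the probes relative to the deleted part of Rb1 is not known here, so they check the pRb label only in part.

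**Figure D1:**
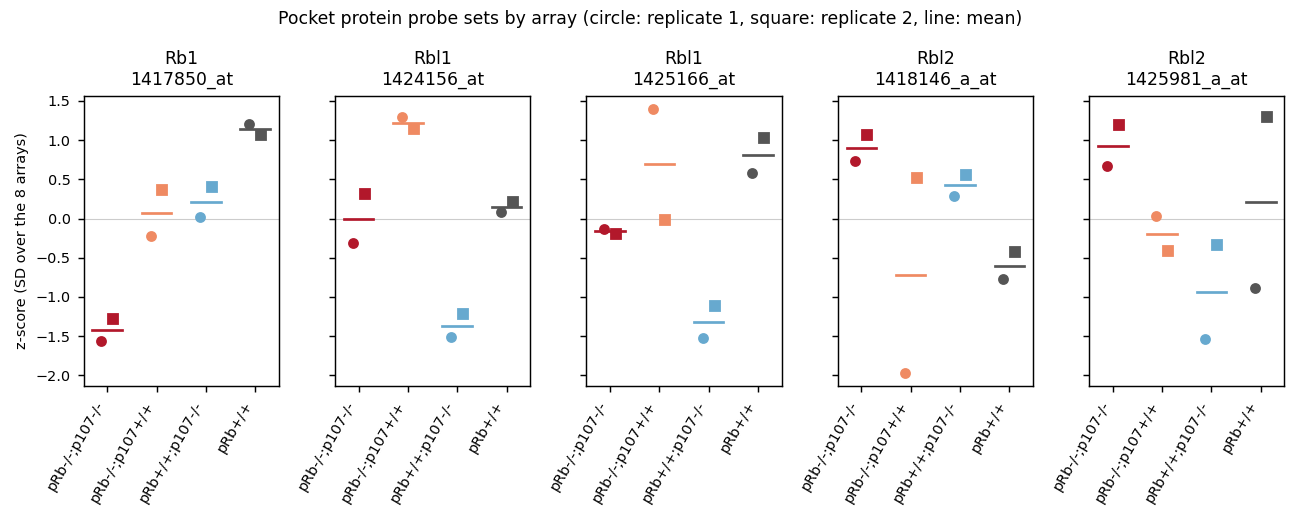
The z-score (SD over the 8 arrays) of each pocket protein probe set is plotted by genotype, with a circle for replicate 1, a square for replicate 2 and a line for the mean. Rb1 has a mean of -1.42 in pRb-/-;p107-/- skin and 1.14 in pRb+/+ skin, both Rbl1 probe sets are lowest in pRb+/+;p107-/- skin, and the Rbl2 probe sets have widely spaced duplicates in 1 or 2 genotypes.

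Marker genes and control probe sets also differed between the genotypes with the lowest and the highest Rb1. The mean z-score of 6 hair follicle markers was -0.82 and -0.75 in pRb-/-;p107-/- duplicates and 0.98 and 0.71 in pRb+/+ duplicates, with -0.31 to 0.24 on the other 4. In that comparison 5 of the 6 had a negative difference and 3 fell. Over all genes 53.3% had a positive difference in it, and 1.41% of all probe sets rose and 1.54% fell. Of 6 fibroblast markers 5 had a negative difference and none passed, and their mean was -0.66 and -1.31 in pRb-/-;p107-/- duplicates against -0.11 and -0.18 in pRb+/+ duplicates. The 3 Gapdh control probe sets averaged 0.04 and -0.03 in pRb-/-;p107-/- duplicates and -1.47 and -1.52 in pRb+/+ duplicates, with 0.57 to 0.84 on the other 4. The 24 poly-A control probe sets, for RNA added before labelling, averaged -0.91 and -0.96 in pRb-/-;p107-/- duplicates against 0.3 and 0.19 in pRb+/+ duplicates. The 18 hybridization controls averaged -0.64 and -0.32 against 0.37 and 2.05 on these arrays. The 3 beta-actin controls averaged -1 and -1.08 against 0.3 and -0.86. Of 5 mast cell markers 3 rose and 1 fell, and their mean was 0.54 and 0.66 in pRb-/-;p107-/- duplicates against -0.66 and -0.49 in pRb+/+ duplicates. Of 4 endothelium markers 1 fell and 3 had a positive difference, and of 4 macrophage markers 1 fell and 2 had a positive difference. The part of these measures in the Rb1 result was not tested.

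Rbl1, which encodes p107, was lowest on the pRb+/+;p107-/- arrays in both of its probe sets. Probe set 1424156_at had values of -0.31 and 0.31 in pRb-/-;p107-/- duplicates, 1.3 and 1.14 in pRb-/-;p107+/+ duplicates, -1.51 and -1.22 in pRb+/+;p107-/- duplicates and 0.08 and 0.21 in pRb+/+ duplicates. The pRb-/-;p107+/+ arrays were the highest, and those of pRb-/-;p107-/- skin surrounded those of pRb+/+ skin. Probe set 1425166_at had values of -0.13 and -0.2 in pRb-/-;p107-/- duplicates, 1.4 and -0.02 in pRb-/-;p107+/+ duplicates, -1.53 and -1.12 in pRb+/+;p107-/- duplicates and 0.58 and 1.03 in pRb+/+ duplicates. Here the pRb-/-;p107+/+ duplicates spanned the pRb+/+ arrays, so the order of those genotypes is not resolved.

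For loss of p107, both Rbl1 probe sets had negative differences in both pRb backgrounds, none past the threshold. By 1424156_at the difference was -1.51 ± 0.25 with pRb present (adjusted p = 0.103) and -1.22 ± 0.25 without it (adjusted p = 0.126). That of 1425166_at was -2.13 ± 0.55 (adjusted p = 0.175) and -0.85 ± 0.55 (adjusted p = 0.478). In each of these 4 comparisons the duplicates did not overlap, as for 57.3% of all probe sets with pRb present and 51.1% without it. Hair follicle markers differed in the direction of Rbl1, and 3 of 6 fell with pRb present and 2 of 6 without it. Of 5 mast cell markers none passed with pRb present, and 3 rose and 1 fell without it. Of 5 keratinocyte markers none passed in either background, and without pRb their means were 0.78 and 0.36 in pRb-/-;p107-/- duplicates and -1.26 and -0.52 in pRb-/-;p107+/+ duplicates. Of 4 adipocyte markers 1 fell without pRb (median difference -2.29). Their means were -0.49 and -0.79 in pRb-/-;p107-/- duplicates against 0.63 and 0.8 in pRb-/-;p107+/+ duplicates. With pRb present all 4 were positive and none passed. Of 6 fibroblast markers none passed, and all 6 were negative without pRb and 5 positive with it. Of 4 macrophage markers 1 fell without pRb and none passed with it. Of all probe sets, 0.42% passed with pRb present and 1.37% without it. Over all genes, 60.5% had a positive difference with pRb present and 48.9% without it. The part of these markers in the Rbl1 values was not tested. Averaged over both pRb backgrounds the difference of 1424156_at was -1.36 ± 0.18 (adjusted p = 0.0516), short of the threshold. It passed with quantile normalization (-1.51, adjusted p = 0.042) and with array medians subtracted (-1.44, adjusted p = 0.0465). It did not pass with the moderated test (adjusted p = 0.108) or a replicate block (adjusted p = 0.109). Leaving out 1 array gave -1.52 to -1.21. The averaged difference of 1425166_at was -1.49 ± 0.39 (adjusted p = 0.129), with all 4 p107-/- arrays below the other 4, as for 15.7% of all probe sets.

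Poly-A control probe sets, 24 in number, which measure RNA added before labelling, were also low wherever p107 was absent. They averaged -0.91 and -0.96 in pRb-/-;p107-/- duplicates against 1.38 and 1.13 in pRb-/-;p107+/+ duplicates, and -0.57 and -0.55 in pRb+/+;p107-/- duplicates against 0.3 and 0.19 in pRb+/+ duplicates. The 18 hybridization controls were lower on these arrays too. Their averages were -0.64 and -0.32 in pRb-/-;p107-/- duplicates against 0.09 and -0.03 in pRb-/-;p107+/+ duplicates. They were -0.8 and -0.71 in pRb+/+;p107-/- duplicates against 0.37 and 2.05 in pRb+/+ duplicates. The part of both control sets in the Rbl1 and Rb1 differences for p107 loss was not tested.

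For loss of pRb, probe set 1424156_at had positive differences in both p107 backgrounds, and those 2 comparisons have no array in common. With p107 kept the difference was 1.07 ± 0.25 (adjusted p = 0.248), without p107 it was 1.37 ± 0.25 (adjusted p = 0.198), and neither passed. By the values just given, the poly-A controls differed in the same direction where p107 was kept and in the opposite direction where it was lost. The other probe set, 1425166_at, differed by -0.12 ± 0.55 where p107 was kept (adjusted p = 0.953) and by 1.16 ± 0.55 where it was lost (adjusted p = 0.53). The median difference over all probe sets was 0.12 and -0.33 in these comparisons. The interaction of the losses was 0.29 ± 0.36 for 1424156_at (adjusted p = 0.786) and 1.28 ± 0.77 for 1425166_at (adjusted p = 0.57), against a median of -0.44.

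In pRb-/-;p107-/- skin, Rbl1 was close to its level in pRb+/+ skin by 1424156_at. Its means were 0 ± 0.44 in pRb-/-;p107-/- skin and 0.14 ± 0.09 in pRb+/+ skin (SD, n = 2 arrays each), a difference of -0.14 ± 0.25 (limma, adjusted p = 0.789) that 93.7% of all probe sets exceeded in size. By 1425166_at the arrays did not overlap, as for 55.4% of all probe sets in that comparison, with means of -0.16 ± 0.05 in pRb-/-;p107-/- skin and 0.8 ± 0.32 in pRb+/+ skin and a difference of -0.97 ± 0.55 (adjusted p = 0.391), short of the threshold. Neither probe set passed between these genotypes, of which 1 is labelled p107-/-. The annotation bases the probe sets on different Rbl1 sequence records, and how their probes lie to the deletion is not known here.

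**Figure D2:**
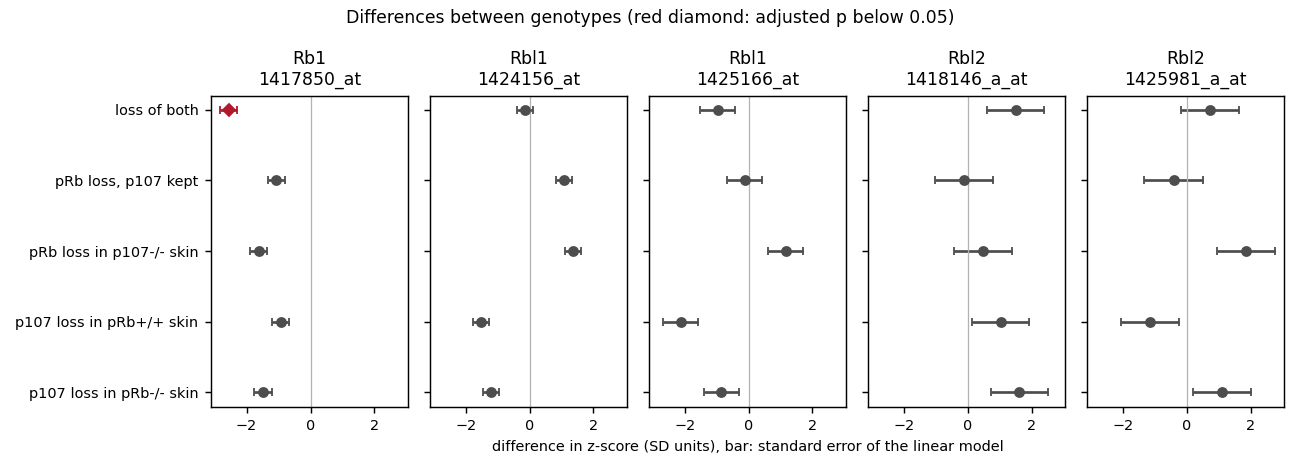
Each panel gives the difference in z-score (SD units) of a pocket protein probe set for 5 comparisons of genotypes, with bars for the standard error (limma). Rb1 lies below 0 in all 5 and passes only for loss of both (red diamond, -2.56), Rbl1 1424156_at lies above 0 for both comparisons of pRb loss and below 0 for both of p107 loss, and the bars of Rbl2 are the widest.

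Rbl2, which encodes p130, was the pocket protein gene left intact in every genotype, and its probe sets gave different pictures. Probe set 1418146_a_at stood at 0.74 and 1.06 in pRb-/-;p107-/- duplicates, at -1.97 and 0.52 in pRb-/-;p107+/+ duplicates, at 0.29 and 0.56 in pRb+/+;p107-/- duplicates and at -0.77 and -0.43 in pRb+/+ duplicates. The pRb-/-;p107-/- arrays were the highest and the pRb-/-;p107+/+ duplicates lay 2.49 apart, which left that genotype without a place in the order. Probe set 1425981_a_at stood at 0.67 and 1.19 in pRb-/-;p107-/- duplicates, at 0.03 and -0.42 in pRb-/-;p107+/+ duplicates, at -1.54 and -0.34 in pRb+/+;p107-/- duplicates and at -0.88 and 1.3 in pRb+/+ duplicates. Here the pRb+/+ duplicates lay 2.19 apart and covered most of the other arrays.

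For loss of both the Rbl2 differences were 1.5 ± 0.9 for 1418146_a_at (limma, adjusted p = 0.412) and 0.72 ± 0.91 for 1425981_a_at (adjusted p = 0.697), neither past the threshold. The standard error pools the spread of all genotypes. For 1418146_a_at that includes the pRb-/-;p107+/+ duplicates, 2.49 apart, which are outside this comparison. Duplicates of the compared genotypes lay 0.33 apart in each. Without pRb+/+ replicate 1 the sign of 1425981_a_at turned (-0.38). For p107 loss, 1418146_a_at differed by 1.03 ± 0.9 with pRb present (adjusted p = 0.582) and by 1.62 ± 0.9 without it (adjusted p = 0.419). In the same order, 1425981_a_at differed by -1.15 ± 0.91 (adjusted p = 0.543) and by 1.12 ± 0.91 (adjusted p = 0.573). For pRb loss where p107 was kept both were near 0, at -0.12 ± 0.9 (adjusted p = 0.972) and -0.41 ± 0.91 (adjusted p = 0.89), with standard errors that leave room for a change in either direction. Where p107 was lost, pRb loss gave 0.48 ± 0.9 (adjusted p = 0.898) and 1.87 ± 0.91 (adjusted p = 0.549). The data thus gave no Rbl2 change that passed, and their spread does not show that Rbl2 was unaltered.

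Seen over all comparisons, calls among the pocket protein probe sets were few. For loss of both, 1 of the 5 passed, where 2.94% of all probe sets did, 1 had an unadjusted p below 0.05, where 22.3% did, and 3 had duplicates that did not overlap, where 55.4% did. For pRb loss with p107 kept, 0 of the 5 passed (limma, 0% of all probe sets), 2 had an unadjusted p below 0.05 (13.4% of all) and 2 did not overlap (40.4% of all). Without p107, pRb loss gave 0 that passed (0.256%), 2 with an unadjusted p below 0.05 (12%) and 5 without overlap (50.9%). Loss of p107 gave 0 that passed with pRb present (0.42%) and 0 without it (1.37%), with 3 (19.4%) and 2 (19.2%) at an unadjusted p below 0.05 and 4 and 5 without overlap (57.3% and 51.1%). Averaged over the other gene, 0 passed for pRb loss (0.181%) and 0 for p107 loss (3.04%), with 2 (13.2%) and 3 (24.9%) at an unadjusted p below 0.05 and 0 (4.2%) and 1 (15.7%) of 5 with the 4 arrays on each side clear of each other. For the interaction 0 passed (0%) and 0 had an unadjusted p below 0.05 (13.1%). With moderated variances limma called 0 in each of the 8 comparisons.

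The share of a probe set's variance that lay between genotypes, and not between duplicates, differed among the members. It was 95.9% for Rb1 and 96.3% for Rbl1 1424156_at, higher than for 96.3% and 96.9% of all probe sets. Rbl1 1425166_at had 82.9%, and the Rbl2 probe sets had 53.6% and 52.2%, below the median of 62.7% over all probe sets.

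**Figure D3:**
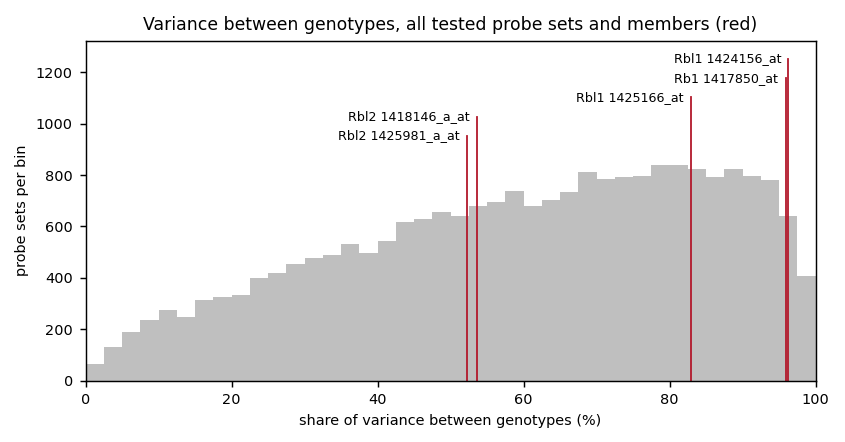
The histogram counts all 22626 tested probe sets by the share of their variance over the 8 arrays that lies between genotypes (percent), and red lines mark the pocket protein probe sets. Rb1 at 95.9% and Rbl1 1424156_at at 96.3% lie at the right edge, and both Rbl2 probe sets lie below the median of 62.7%.

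Probe sets of the same gene need not agree on these arrays. Over the 8 arrays the Rbl1 probe sets correlated with r = 0.82 and the Rbl2 probe sets with r = 0.14, where 12821 pairs of probe sets of the same gene had a median r of 0.19. Between genes, Rbl1 1425166_at and Rbl2 1418146_a_at had r = -0.72, and Rb1 and Rbl1 1424156_at had r = 0. These values describe 8 arrays, 2 of each genotype.

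Among the partners and targets of pocket proteins, 50 genes in 6 lists were measured, and for loss of both 5 rose and 2 fell, where 1.41% of all probe sets rose and 1.54% fell. E2F-regulated S phase genes had positive differences in 14 of 15 cases, where 53.3% of all genes did (median 2.21, against 0.14 over all genes), and 4 rose. Mcm5, a subunit of the replicative helicase, rose by 2.6 ± 0.2 (adjusted p = 0.0236), with 1.23 and 1.41 in pRb-/-;p107-/- duplicates against -1.55 and -1.02 in pRb+/+ duplicates. Rrm2, a subunit of ribonucleotide reductase, rose by 2.55 ± 0.26 (adjusted p = 0.0377). The licensing factor gene Cdc6 rose by 2.48 ± 0.25 (adjusted p = 0.0377), and the polymerase clamp gene Pcna by 2.4 ± 0.24 (adjusted p = 0.0379). The S phase and mitotic cyclin gene Ccna2 fell by 1.77 ± 0.12 on the SD scale (adjusted p = 0.0207), but its other probe set had the opposite sign. The count of 7 was 0 with the moderated test, with a replicate block, with the 2 genotypes alone and when a single pRb-/-;p107-/-, pRb+/+;p107-/- or pRb+/+ array was left out. It was 3 when either pRb-/-;p107+/+ array was left out, and of the 7 genes Ccna2 alone kept its call there (adjusted p = 0.0433). The shifts in hair follicle markers and Gapdh controls given with Rb1 stand beside these calls too, and their part was not tested.

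The other partner lists had fewer calls, and for loss of both 53.3% of all genes had a positive difference. The cyclin D1 gene Ccnd1, which with its kinase phosphorylates pocket proteins, had a difference of -2.18 ± 0.19 (adjusted p = 0.0271), and it was the only 1 of 8 G1 cyclin and kinase genes to pass. The DNA methyltransferase gene Dnmt1, whose protein binds pRb, rose by 2.48 ± 0.3 (adjusted p = 0.0455), the only 1 of 9 chromatin partners. Of 7 E2F and DP genes 6 had a positive difference and none passed, and E2f1, an activating E2F, had the largest, 2.17 ± 0.48 (adjusted p = 0.108). Of 7 CDK inhibitor genes 6 were positive and none passed, with Cdkn2d at 2.45 ± 0.38 (adjusted p = 0.0659). The kinase gene Cdk2 differed by 2.23 ± 0.61 (adjusted p = 0.151). The 4 measured genes of the MuvB core and B-Myb were all positive without passing (median 0.48), with Lin37 at 1.03 ± 0.97 (adjusted p = 0.595).

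As an E2F target, Rbl1 can be set beside the S phase genes. The S phase list averaged 1.1 and 0.68 in pRb-/-;p107-/- duplicates, 0.36 and -0.13 in pRb-/-;p107+/+ duplicates, -0.13 and -0.23 in pRb+/+;p107-/- duplicates and -0.94 and -0.72 in pRb+/+ duplicates. For pRb loss its median difference was 1.02 with p107 kept, where Rbl1 1424156_at had 1.07, and 1.42 without p107, where that probe set had 1.37. For p107 loss the list's median was 0.9 with pRb present, where the probe set had -1.51, and 1.12 without pRb, where it had -1.22. The other Rbl1 probe set, 1425166_at, had -0.12 with p107 kept and 1.16 without p107 for pRb loss. It had -2.13 with pRb present and -0.85 without pRb for p107 loss. No S phase gene of the list passed for pRb loss in either background, and for p107 loss Ccna2 alone passed in each, lower with pRb present (-1.95 ± 0.12, adjusted p = 0.0446) and without it (-1.77 ± 0.12, adjusted p = 0.0301). Its other probe set had the opposite sign with pRb present, and also for p107 loss averaged over pRb status. Averaged over both pRb backgrounds, p107 loss gave 3 that rose and 1 that fell, where 3.04% of all probe sets passed in either direction. With the moderated test no probe set passed in that comparison. Those that rose were Cdc6 (1.47 ± 0.18, adjusted p = 0.0455), Mcm5 (1.17 ± 0.14, adjusted p = 0.0467) and Rrm2 (1.48 ± 0.18, adjusted p = 0.0472), and Ccna2 fell (-1.86 ± 0.09, adjusted p = 0.016). Whether Rbl1 differs from the list in these comparisons was not tested.

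**Figure D4:**
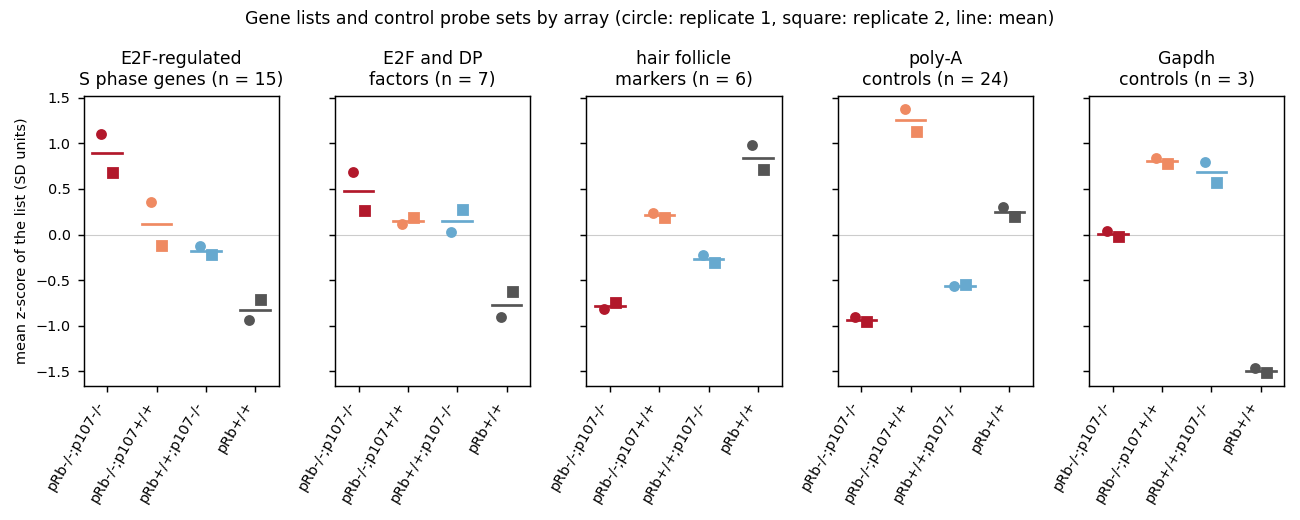
The mean z-score (SD units) of gene lists and of control probe sets is plotted by genotype, with a circle for replicate 1, a square for replicate 2 and a line for the mean of the 2 arrays. The S phase list is highest in pRb-/-;p107-/- skin and lowest in pRb+/+ skin, hair follicle markers run the opposite way, poly-A controls are below 0 on all 4 p107-/- arrays and Gapdh controls are lowest in pRb+/+ skin.

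Genes beside the members in the genome were measured by 13 probe sets of 4 genes, of which none passed in any of the 8 comparisons (limma). Rb1 lies between Rcbtb2 and Itm2b, with Lpar6, a lysophosphatidic acid receptor gene, inside it and without a probe set of its own here. The 3 Rcbtb2 probe sets had differences from -1.9 to -1.18 for loss of both, and the 3 of Itm2b, which encodes a membrane protein, from -1.6 to 0.61. Beside Rbl1, the 4 probe sets of Samhd1, whose product breaks down deoxynucleotides, had -0.92 to 1.81. Aktip overlaps Rbl2 in the annotation. Its probe set 1437767_s_at stood at -1.29 and -0.89 in pRb+/+;p107-/- duplicates against 1.54 and 1.34 in pRb+/+ duplicates, a difference of -2.52 ± 0.27 (adjusted p = 0.0662), while another, 1430219_at, differed by -0.09 ± 1.24 (adjusted p = 0.976).

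The genes most like each member were found by Pearson correlation over the 8 arrays among 12393 genes, as a description of arrays that share genotype. Rb1 was followed most closely by Rab11fip5, the dipeptidase gene Cndp2, the tRNA synthetase gene Eprs, the SNARE gene Sec22b and Ltbp3, which binds latent TGF-beta, with r from 0.964 to 0.978, and 101 genes had r above 0.9. For Rbl1 1424156_at they were Cwh43, Uhrf1, which guides Dnmt1 to replicated DNA, the sterol synthesis gene Cyp51, Cnih4 and Agfg1, with r from 0.936 to 0.96. For Rbl1 1425166_at they were the ephrin gene Efna1, N4bp1, the cell polarity gene Patj, Sil1 and Ccz1 (r from 0.939 to 0.975), and the genes nearest to both Rbl1 probe sets had no name in common.

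Rbl2 1418146_a_at was closest to the endoplasmic reticulum chaperone gene Hyou1, the ubiquitin ligase gene Arih2, Slc35e4, Zfp354a and Cgnl1, a gene of cell junctions (r from 0.949 to 0.981). Rbl2 1425981_a_at was closest to the Bcl2 family gene Bok, the protein kinase A inhibitor gene Pkig, Stx19, Prelid3b and Cfap97 (r from 0.894 to 0.947), and 3 genes had r above 0.9. Other probe sets of some of these genes followed the member less. With Rbl2 1418146_a_at the lowest r was -0.47 for Arih2 and -0.3 for Hyou1. With Rbl1 1424156_at it was -0.19 for Cyp51, but with Rb1 it was 0.8 for Cndp2 and for Eprs.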

How the data were processed

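Skin samples of 30 mg gave the total RNA, per the labels' protocols, and RNA of 3 animals was pooled for an array, per the series text. The submitters' processing notes name RMA without a version. The authors deposited a standardized score (z-score) per probe set, as found from the values, and no source used here says whether it was made from log or linear values.

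Groups and replicate numbers are those of the titles. Of 22690 probe sets, 64 array controls were left out. A limma 3.58.1 linear model (R 4.3.3) had 1 coefficient for each genotype and 4 residual degrees of freedom. Its unmoderated test was used, because moderation pools variances that standardization has tied to the differences, and the script was tested on simulated data. No filter on low values was possible. For lists, 1 probe set stood for each gene, chosen without its values (names ending in _at first, then the lowest number). Of the tested probe sets, 20380 had 1 symbol, 691 several and 1555 none. Genes named are the members, the 5 genes most correlated with each probe set, genome neighbours, and in each partner list those that passed and the largest difference for loss of both. The members, lists and tests were chosen with earlier results of these data known. Alternatives were the moderated test, 2 rescalings, a replicate block, leaving out each array, and fits to 2 genotypes. Their use on the partner lists was added after the data were seen.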

Additional observations from a re-analysis of the deposited data

How the results depend on the processing

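No member difference changed sign under the moderated test, either rescaling, the replicate block or fits to 2 genotypes. The number of pocket protein probe sets called for loss of both, 1 (Rb1), was 0 under each of these and ran from 0 to 0 when any array was left out. For p107 loss averaged over pRb status the number was 0, and it was 1 (Rbl1 1424156_at) with quantile normalization and 1 with array medians subtracted. All other such counts stayed at 0. Partner genes called for loss of both numbered 7, but 0 with the moderated test, 0 with the replicate block, 0 with the 2 genotypes alone and 0 to 3 when 1 array was left out, where Ccna2 alone of the 7 kept its call, in 2 of 8 fits. With the replicate block, Rb1 had an adjusted p of 0.083 for loss of both. Differences between duplicates correlated between genotypes with r from -0.131 to 0.105, so no pattern over probe sets shared by replicate number was seen. A shift common to all probe sets cannot show in such a correlation. Whether replicate numbers pair the arrays is not known here.

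Signs turned in 14 of 505 values, all when 1 array was left out and none past the threshold. Leaving out 1 array gave a range of -1.5 to 0.69 (pRb loss with p107 kept), -0.56 to 0.53 (p107 loss averaged; also positive at 0.1, 0.29 and 0.12 without pRb-/-;p107+/+, pRb+/+;p107-/- and pRb-/-;p107-/- replicate 1) and -0.38 to 1.81 (loss of both) for 1425981_a_at. For 1418146_a_at the ranges were -1.37 to 1.12 (pRb loss with p107 kept, 0.05 without pRb+/+ replicate 2), -0.65 to 1.84 (interaction) and -0.44 to 0.8 (pRb loss averaged). For 1425166_at the range was -0.83 to 0.59 (pRb loss with p107 kept, 0.11 without pRb+/+ replicate 2), and for 1424156_at -0.45 to 0.17 (loss of both) and -0.02 to 0.61 (interaction). The cause was not tested.

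Over all probe sets, 666 passed for loss of both, but 0 with the moderated test, 370 with quantile normalization, 37 with the replicate block, 1 with the arrays of the 2 genotypes alone and 0 to 242 when 1 array was left out. For p107 loss the main counts were 95 in pRb+/+ skin and 310 in pRb-/- skin, and the moderated test gave 0 for each. The count averaged over pRb status was 687, with 0 under the moderated test, 34 with the replicate block and 700 with quantile normalization. Subtracting array medians moved the median difference of all probe sets for p107 loss in pRb+/+ skin to 0.04, against 0.35 as deposited, and for pRb loss in p107-/- skin to -0.05, against -0.33. Z-scores hide signal over background, so dim probe sets could not be set apart.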
